A study of Mus musculus with 15 samples.

Results

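CatSper is the calcium channel of the sperm tail, and the genes described here encode 8 of its subunits together with the sperm potassium channel and the sperm sodium-proton exchanger. The 10 genes were taken by name from the 23510 gene IDs of a testis expression table: Catsper1, Catsper2, Catsper3 and Catsper4 (the pore), Catsperb, Catsperd, Catsperz and Efcab9 (accessory subunits), Kcnu1 (the pore of the potassium channel KSper, also called Slo3) and Slc9c1 (the exchanger sNHE). All 10 had a row, and all 10 passed the filter of a mean of at least 1 FPKM (fragments mapped to a gene, scaled to its length and to the size of the library), as did 14514 genes in total.

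CatSper is a hetero-tetrameric channel that opens when the inside of the sperm tail becomes alkaline, and the calcium it lets in drives hyperactivated swimming. The accessory subunits hold the complex in long strips along the flagellum, where EFCAB9, an EF-hand calcium sensor, acts as a pair with CATSPERζ. KSper sets the membrane voltage of the sperm and sNHE is linked to its pH and cAMP signalling, and male mice that lack pore subunits, Kcnu1 or Slc9c1 are infertile. In the testis these genes are transcribed in the later germ cells, from spermatocytes to spermatids, well before the proteins are used.

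The study tested 3 muscarinic acetylcholine receptors, M5, M1 and M3 (genes Chrm5, Chrm1 and Chrm3), in the testes of ICR mice, an outbred strain. Lentivirus carrying shRNA was injected into the testes of males aged 5 weeks, and testes were collected 10 days later. There were 15 libraries in 5 groups of 3. M5, M1 and M3 received a mix of 3 shRNAs against the receptor of that name, MNC received the control lentivirus (shNC), and Con is a control for which the labels give no agent and whose handling is not described in the sources used here. Lentivirus reaches only part of the cells of a testis, and the libraries are whole-tissue RNA, so uninfected cells are in every library. In such bulk RNA, fewer cells of a type and less RNA per cell cannot be told apart. The labels do not say whether the 3 libraries of a group are 3 mice, so p-values measure the spread between libraries, which may be partly technical.

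The shRNA targets did not mark the groups. Chrm5 stood at 0.37, 0.22 and 0.37 FPKM in the M5 libraries and 0.43, 0.23 and 0.43 FPKM in the MNC libraries. Chrm1 was 0.14, 0.11 and 0.09 FPKM in M1 against 0.1, 0.11 and 0.11 in MNC, and Chrm3 was 0.08, 0.04 and 0.11 FPKM in M3 against 0.05, 0.01 and 0.05 in MNC. The groups overlapped for Chrm5, Chrm1 and Chrm3, with exact permutation p = 0.5, 0.9 and 0.3 (two-sided, n = 3 against 3, smallest possible p = 0.1), so the labels could not be checked by the level of the target at these low values.

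Promoter sequence is shown for 3 members, because Catsperb and Slc9c1 followed each other most closely among the members that were lower outside Con, while Catsper3 was one of the members that were higher outside Con. The stretches are the upstream bases of RefSeq promoters, up to the first annotated exon, on the + strand of GRCm38.p6. They lie at chr12:101404423-101404652 for Catsperb, chr16:45535016-45535265 for Slc9c1 and chr13:55784329-55784567 for Catsper3. Those of Catsperb and Catsper3 run past the RefSeq starts of the genes, 101404645 and 55784500. Capitals mark CCAAT or its reverse complement ATTGG, a motif chosen after values and sequences were seen.
Catsperb: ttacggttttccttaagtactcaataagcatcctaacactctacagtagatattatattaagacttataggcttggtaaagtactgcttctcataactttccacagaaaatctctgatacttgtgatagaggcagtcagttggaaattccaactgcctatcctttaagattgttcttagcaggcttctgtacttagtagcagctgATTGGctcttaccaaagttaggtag
Slc9c1: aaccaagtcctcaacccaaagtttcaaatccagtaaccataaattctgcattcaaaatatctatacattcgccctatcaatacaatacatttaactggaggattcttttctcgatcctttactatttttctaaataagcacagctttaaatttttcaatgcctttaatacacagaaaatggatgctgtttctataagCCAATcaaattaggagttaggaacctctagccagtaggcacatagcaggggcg
Catsper3: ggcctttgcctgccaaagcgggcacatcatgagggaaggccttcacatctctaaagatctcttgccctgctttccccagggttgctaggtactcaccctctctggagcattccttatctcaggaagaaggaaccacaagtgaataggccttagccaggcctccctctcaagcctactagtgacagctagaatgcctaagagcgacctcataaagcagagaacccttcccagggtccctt

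The Catsperb and Slc9c1 stretches are AT-rich, with 37.4% and 35.6% G and C and 1 and 3 CG dinucleotides, and each holds 1 CCAAT box, starting 25 and 53 bases before the end of the stretch. The Catsper3 stretch has 53.1% G and C, 2 CG dinucleotides and no CCAAT box. RefSeq promoters were found for 8 of the 10 members (9 promoters, since Catsperd has 2, with none found for Catsper1 and Kcnu1). Over the 250 bases upstream, CCAAT on either strand was in the promoters of 4 of these 8 members (Catsper2, Catsperb, Catsperz and Slc9c1) and in 33.8% of all 32851 mouse promoters. TGACG, the core of the CRE motif that CREM binds in spermatids, was in 2 of 8 (Catsper2 and Catsperd) and in 17.8% of all promoters. The Catsper2 promoter was richest in G and C, with 74.8% and 35 CG dinucleotides, followed by 1 of the 2 Catsperd promoters (66.8% and 25). Those of Catsper4, Catsperb and Efcab9 held 1 CG dinucleotide each. The Catsper2 window (chr2:121413743-121414042) lies inside the RefSeq span of the gene, which overlaps the start of Pdia3 on the other strand. A match is a description of the letters and not of a factor that binds them.

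All 10 genes were abundant in every library. Over the 15 libraries the mean level per length was highest for Catsperz (346 FPKM, above 99.3% of gene IDs), followed by Efcab9 (177 FPKM), Catsper2 (124 FPKM), Catsper1 (83.1 FPKM), Catsper4 (61.1 FPKM), Catsper3 (50.0 FPKM), Catsperd (49.8 FPKM), Slc9c1 (35.4 FPKM), Catsperb (33.0 FPKM) and Kcnu1 (31.4 FPKM, above 86.4% of gene IDs). The pair that forms the calcium sensor was thus at the top of the order, and the pore subunits were unequal. In Con the ranges of Catsper2 and Efcab9 overlapped, as did those of Catsper4 and Catsperd and those of Slc9c1, Catsper3 and Catsperb, so these neighbours did not differ beyond their spread. In MNC, M1, M3 and M5 Efcab9 was above Catsper2 in every library, whereas Catsperb, Kcnu1 and Slc9c1 were close together at the bottom.

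The members varied little. The highest library was 1.22 times the lowest for Catsperz, 1.68 times for Efcab9, and in between for the other members. Kcnk4, which overlaps Catsperz on the same strand, was at 0.95 to 1.54 FPKM, and Catsper2 overlaps the start of Pdia3 on the other strand (141.03 to 185.68 FPKM) and 2 processed pseudogenes. Whether counting used strand is not stated, so reads of Catsper2 and of Pdia3 could not be told apart where they overlap.

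**Figure D1:**
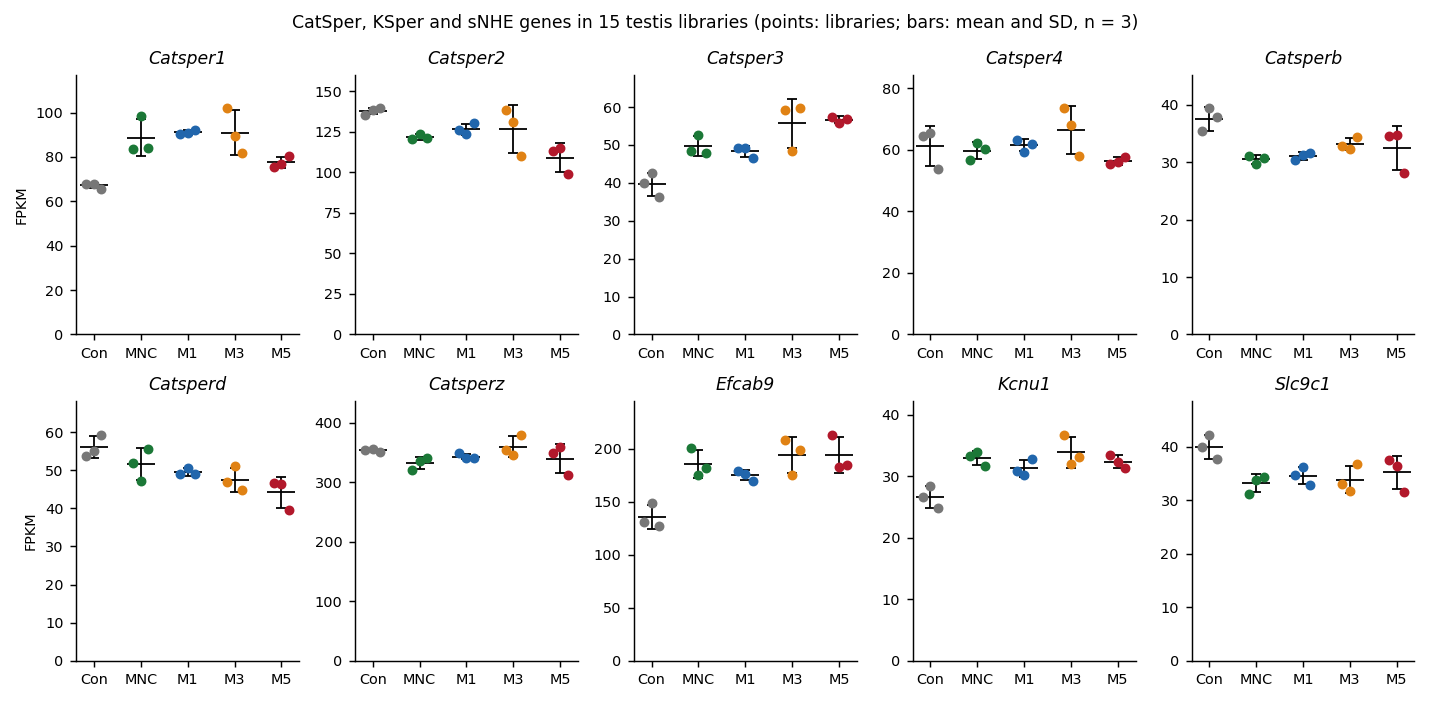
FPKM (y axis, from 0) of the 10 genes in the Con, MNC, M1, M3 and M5 groups (x axis), with a point for each library and bars for the mean and SD (n = 3). Catsper1, Catsper3, Efcab9 and Kcnu1 are lowest in Con, and Catsperb is highest there, while Catsper4 and Catsperz differ little between groups.

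The difference that most members shared was between the libraries of virus-injected testes and Con. MNC against Con holds no receptor shRNA. The age and handling of Con are not described, so its differences from MNC cannot be assigned to the lentivirus. By limma on log2(FPKM + 1), 7 of 10 members were called at an adjusted p under 0.05. Of these, 4 were higher in MNC (Catsper1, Catsper3, Efcab9 and Kcnu1) and 3 were lower (Catsper2, Catsperb and Slc9c1). Of all 14514 genes tested, 20.4% were called, 8.03% higher and 12.4% lower. The median difference was -0.06 over the members and -0.095 over all genes tested, on the log2 scale. When each library was centred on its median, or a trend with GC content was removed, the 4 higher members were still called. None of the 3 lower members was. The share of higher calls over all genes went from 39.3% to 77.5% and 68.5%. With quantile normalization all 7 members were still called, and Catsperz was called lower too. There 48.0% of the calls over all genes were higher, so the lower calls depended on the scaling chosen. All 7 kept their sign under every alternative run. The count rested on single libraries. It was 0 without Con replicate 1 or Con replicate 3, and 1 without Con replicate 2 or MNC replicate 3. It was 2 without MNC replicate 2 and 4 without MNC replicate 1. Over all genes tested, calls also fell, from 2967 to 8, 195 and 1343 without Con replicates 1, 2 and 3. Without MNC replicates 1, 2 and 3 they fell to 2497, 638 and 1032.

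Catsper1, the pore subunit first found, was at 67.78, 67.96 and 65.76 FPKM in Con and at 83.61, 98.38 and 84.12 FPKM in MNC. It lay between 75.58 and 101.87 FPKM in the 9 libraries of M1, M3 and M5. Every library of the injected groups was above every Con library. MNC was 1.32-fold Con, a log2 difference of 0.39 ± 0.0715 (SE), adjusted p = 0.0244. Catsper3, another pore subunit, was at 39.91, 42.51 and 36.4 FPKM in Con and at 48.47, 52.68 and 47.92 FPKM in MNC. The groups did not overlap, and the log2 difference was 0.32 ± 0.0716, adjusted p = 0.0326.

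Catsper2, the most abundant pore subunit, went the other way. It was at 135.57, 138.31 and 139.31 FPKM in Con and at 120.21, 123.56 and 120.8 FPKM in MNC, so that all Con libraries were higher. The log2 difference was -0.18 ± 0.0379, adjusted p = 0.0296. Catsper4 was at 64.58, 65.42 and 53.87 FPKM in Con and at 56.67, 62.36 and 60.23 FPKM in MNC. These ranges overlapped, and the log2 difference of -0.03 had a 95% interval of -0.24 to 0.18 (adjusted p = 0.8). The sum over the pore subunits was 295 to 314 FPKM in Con and 309 to 337 FPKM in MNC.

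The make-up of the pore transcripts therefore differed between Con and the injected groups. Catsper2 made up 44.0% to 47.2% of the pore subunits' summed FPKM in Con and 33.6% to 39.3% in the 12 other libraries. Catsper1 made up 21.6% to 22.3% in Con and 25.1% to 29.2% elsewhere. The ratio of Catsper1 to Catsper2, which does not depend on the scaling of a library, was 0.5, 0.491 and 0.472 in Con, 0.696, 0.796 and 0.696 in MNC, and 0.668 to 0.814 in M1, M3 and M5. Con stood below all other libraries, and with 3 libraries against 3 the exact permutation test of MNC against Con gave p = 0.1, the smallest it can give (two-sided, adjusted p = 0.133 over 4 ratio tests chosen after the values were seen).

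Among the accessory subunits, Efcab9 was the one most raised in MNC relative to Con. It was at 130.41, 148.38 and 126.95 FPKM in Con and at 200.3, 175.04 and 181.51 FPKM in MNC, without overlap. MNC was 1.37-fold Con, a log2 difference of 0.45 ± 0.0799, adjusted p = 0.0233. Its partner Catsperz was at 354.29, 355.96 and 351.95 FPKM in Con and at 321.6, 336.74 and 341.19 FPKM in MNC. All MNC libraries were lower for Catsperz, but the log2 difference of -0.09 (95% interval -0.19 to 0.01) was not called, adjusted p = 0.165. The transcripts of the sensor pair were thus not in a fixed ratio: Efcab9 over Catsperz was 0.361 to 0.417 in Con and 0.497 to 0.623 in the other 12 libraries.

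Catsperb, which encodes a subunit with a large extracellular part, was at 35.36, 39.37 and 37.93 FPKM in Con and at 31.06, 29.64 and 30.78 FPKM in MNC. The groups did not overlap, and the log2 difference was -0.29 ± 0.0552, adjusted p = 0.0256. Catsperd, also an extracellular-domain subunit and one the channel needs for its stability, was at 53.8, 55.01 and 59.29 FPKM in Con and at 51.93, 47.19 and 55.65 FPKM in MNC. These overlapped, and the log2 difference was -0.12 (95% interval -0.3 to 0.06, adjusted p = 0.263).

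Kcnu1 was higher in MNC than in Con, as Catsper1 was. It was at 26.6, 28.37 and 24.81 FPKM in Con and at 33.31, 33.9 and 31.69 FPKM in MNC, with no overlap and a log2 difference of 0.3 ± 0.0629, adjusted p = 0.0289. Slc9c1 was at 39.92, 42.27 and 37.7 FPKM in Con and at 31.24, 33.88 and 34.36 FPKM in MNC. The exchanger transcript was lower in every MNC library, by -0.26 ± 0.0631 on the log2 scale, adjusted p = 0.0371.

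M1, M3 and M5 were also set against the same 3 Con libraries, so these comparisons share their controls with the one above and with each other. Members called were 8 of 10 in M1 (34.2% of all genes tested), 4 of 10 in M3 (22.1%) and 6 of 10 in M5 (21.7%). Catsper1, Catsper3, Efcab9 and Kcnu1 were called higher in each of them. The log2 difference of Catsper1 was 0.43 in M1, 0.43 in M3 and 0.21 in M5, and that of Catsper3 was 0.28, 0.48 and 0.51. Efcab9 differed by 0.37, 0.52 and 0.51, and Kcnu1 by 0.23, 0.34 and 0.28. Their adjusted p-values by limma lay between 0.00542 and 0.0338.

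Efcab9 was at 179.16, 176.27 and 169.38 FPKM in M1, at 208.23, 175.02 and 198.71 FPKM in M3 and at 212.98, 182.59 and 184.77 FPKM in M5. Kcnu1 was at 30.84, 30.22 and 32.88 FPKM in M1, at 36.77, 31.98 and 33.08 FPKM in M3 and at 33.49, 32.38 and 31.33 FPKM in M5. For Efcab9 and Kcnu1 every one of these libraries was above every Con library.

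The members that were lower were called less evenly. Catsperb was at 30.35, 31.33 and 31.58 FPKM in M1, at 32.83, 32.31 and 34.37 FPKM in M3 and at 34.64, 34.74 and 28.13 FPKM in M5. Slc9c1 was at 34.8, 36.19 and 32.92 FPKM in M1, at 33.14, 31.77 and 36.74 FPKM in M3 and at 37.53, 36.49 and 31.63 FPKM in M5. For Catsperb and Slc9c1 every one of these libraries was below every Con library. Catsperd was at 49.0, 50.62 and 48.91 FPKM in M1 and at 46.81, 50.97 and 44.7 FPKM in M3. Catsper2 was called lower in M1 (-0.12, adjusted p = 0.0473) and M5 (-0.34, adjusted p = 0.0194), Catsperb (-0.26) and Slc9c1 (-0.2) in M1, and Catsperd in M1 (-0.17, adjusted p = 0.0362) and M5 (-0.34, adjusted p = 0.0297). The median over all genes tested was -0.115 in M1, -0.129 in M3 and -0.044 in M5. With each library centred on its median none of these lower calls stood, and Catsper2 changed sign in M1 and M3. With the centring 4, 4 and 2 members were called higher in M1, M3 and M5, with 72.7%, 86.1% and 57.6% of all calls higher in place of 30.1%, 31.7% and 43.0%. With quantile normalization (45.0%, 56.6% and 41.5% higher) lower calls did stand. They were Catsper2, Catsperb, Catsperz and Slc9c1 in M1, and Catsper2 and Catsperd in M5. Efcab9 was then not called in M1 and M3, nor Catsper1 in M5. After removing the GC trend, Catsperb in M1 was the only lower call. Leaving out 1 library gave 2 to 5 members called in M1 (2 without Con replicate 1 or M1 replicate 1) and 1 to 6 in M5 (1 without Con replicate 1). In M3 the count was 0 without any single Con library or M3 replicate 1, and 3 without M3 replicate 3. Calls over all genes tested fell too. Without Con replicate 1 they went from 4969 to 1259 in M1, from 3143 to 708 in M5 and from 3210 to 0 in M3. In M3 they were 1 and 772 without Con replicates 2 and 3, and 61 without M3 replicate 1.

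**Figure D2:**
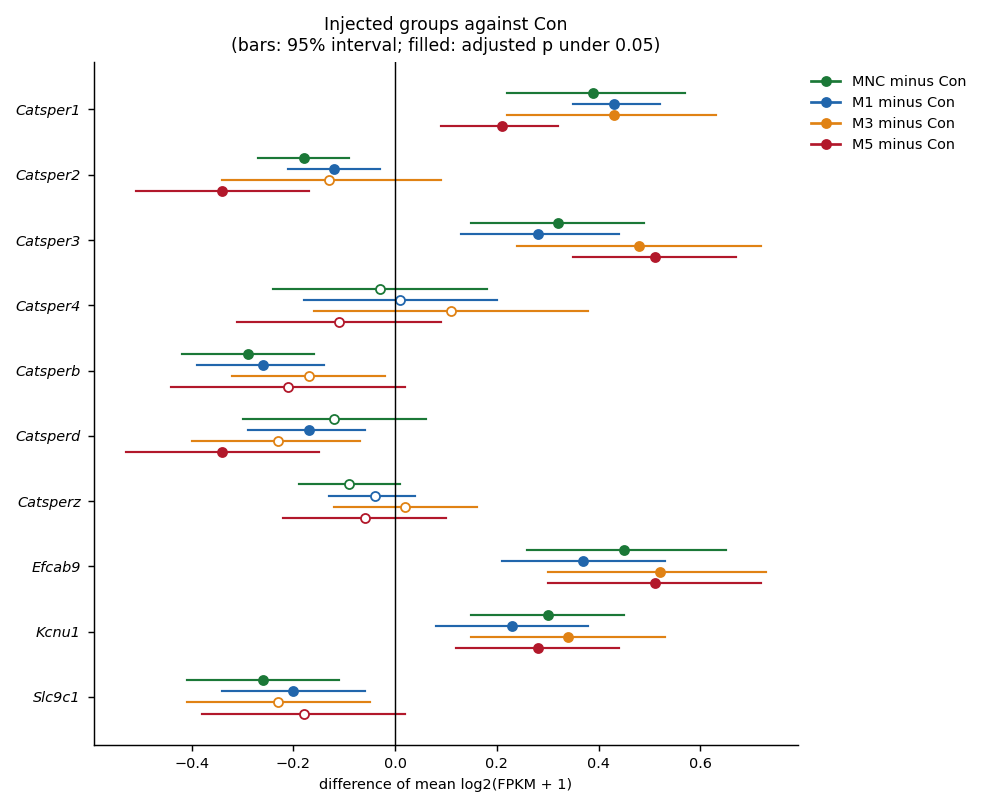
Difference of mean log2(FPKM + 1) of the injected groups MNC, M1, M3 and M5 from Con (x axis) for each of the 10 genes (y axis), where bars are 95% intervals from limma and filled points have an adjusted p under 0.05. Catsper1, Catsper3, Efcab9 and Kcnu1 lie to the right of 0 in all 4 groups, and Catsperb and Slc9c1 to the left.

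Genes that mark germ cell stages moved with the same contrast. Beside the 8.03% of all genes called higher in MNC than in Con and the 12.4% called lower, 5 of 10 markers of elongating spermatids were called higher (median difference 0.74), and their summed level was 12399 to 23607 FPKM in Con and 25726 to 32146 FPKM in MNC. Of 8 markers of round spermatids, 4 were called higher (median 0.27, 1110 to 1141 FPKM in Con, 1302 to 1364 FPKM in MNC). Of 9 markers of spermatocytes, 5 were called lower (median -0.31, 636 to 676 FPKM in Con, 523 to 533 FPKM in MNC). Of 10 Sertoli cell markers, 2 were called lower and 5 had an unadjusted p under 0.05 (median -0.27, 587 to 680 against 501 to 576 FPKM). Over all 14514 genes tested, 5815 had an unadjusted p under 0.05 by limma, so these Sertoli counts were not far from the shares over all genes. Epididymal genes (7 markers) summed to 16.9 to 36.5 FPKM in Con and 1.46 to 2.17 FPKM in MNC. No marker of these lists was at 0 in every library, and their part in the members' differences was not tested.

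The comparison the knockdown design turns on is each receptor shRNA against MNC. No member was called in M5 against MNC (0 of 10, with 2 at an unadjusted p under 0.05), where limma called 5.65% of all genes tested. None was called in M1 against MNC (0 of 10, with 0 below an unadjusted p of 0.05), where 0% of all genes tested were called, and none in M3 against MNC (0 of 10, and 0 unadjusted), where 0.00689% were. Over all genes tested, 3620, 862 and 1369 were at an unadjusted p under 0.05 in M5, M1 and M3. These counts of members stayed at 0 under every alternative with MNC as the control, including each left-out library. The median difference over the members was 0.0 in M5, 0.04 in M1 and 0.06 in M3.

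In M5 the pore subunits were unequal again. Catsper1 was at 75.58, 77.01 and 80.29 FPKM in M5, below all MNC libraries, a log2 difference of -0.19 ± 0.0771 with an adjusted p of 0.196. Catsper3 was at 57.42, 55.7 and 56.9 FPKM in M5, above all MNC libraries, with a log2 difference of 0.19 ± 0.0584 and an adjusted p of 0.111. Catsper2 was at 113.18, 114.82 and 98.64 FPKM in M5, also below MNC. Its difference of -0.16 had a 95% interval of -0.33 to 0.01. None of these pore subunits passed the threshold, although the groups did not overlap.

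The other members of the complex were as follows in M5. Catsperd was at 46.65, 46.3 and 39.52 FPKM, all below MNC, with a log2 difference of -0.22 (95% interval -0.44 to 0.0, adjusted p = 0.203). Catsper4, Catsperb, Catsperz, Efcab9, Kcnu1 and Slc9c1 overlapped with MNC and differed by -0.08 to 0.08. Their intervals reached from -0.22 to 0.31, so differences within that range are not excluded for these members.

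In M1 no member differed from MNC by more than 0.08 on the log2 scale, and the intervals of all 10 lay within -0.23 and 0.21. Catsper2 was at 125.73, 123.62 and 130.08 FPKM in M1, where the highest MNC library was at 123.56 FPKM (adjusted p = 0.837 by limma). In M3 the intervals were wider, from -0.32 to 0.39, and the M3 libraries differed more among themselves than those of M1 for Catsper1, Catsper2 and Catsper3. Catsper2 was at 138.62 and 130.72 FPKM in M3 replicates 1 and 2 and at 109.96 FPKM in replicate 3, and Catsper1 was at 101.87, 89.54 and 81.61 FPKM. Catsper3 was at 59.13, 48.29 and 59.64 FPKM in M3, a difference of 0.16 from MNC (95% interval -0.08 to 0.39).

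**Figure D3:**
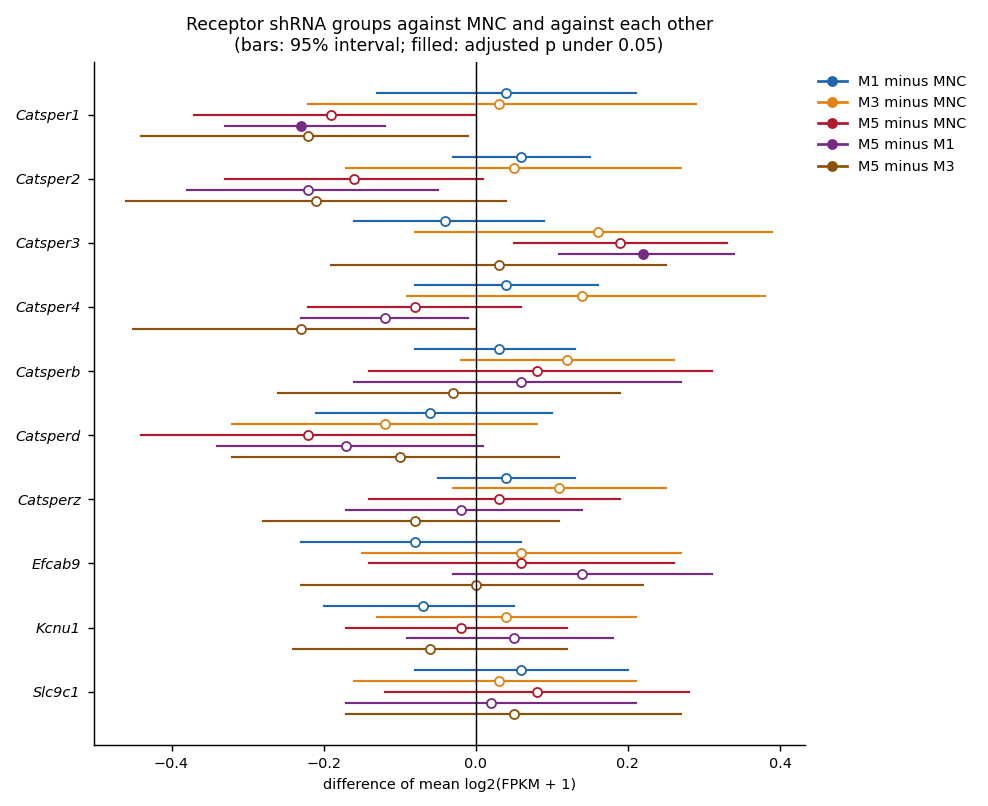
Difference of mean log2(FPKM + 1) (x axis) of M1, M3 and M5 from MNC and of M5 from M1 and M3, for each of the 10 genes (y axis), where bars are 95% intervals from limma and filled points have an adjusted p under 0.05. Filled points are seen for M5 minus M1 only, at Catsper1 (-0.23) and Catsper3 (0.22).

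Set directly against M1, M5 had 2 of 10 members called, with 4 at an unadjusted p under 0.05 (6.75% of all genes tested were called). Catsper1 was at 90.17, 90.83 and 92.17 FPKM in M1, so all M5 libraries were lower, with a log2 difference of -0.23 ± 0.0447 and an adjusted p of 0.0371. Catsper3 was at 49.31, 49.09 and 46.69 FPKM in M1, so all M5 libraries were higher, with a log2 difference of 0.22 ± 0.0465 and an adjusted p of 0.0421. Both calls were lost when libraries were centred or the GC trend was removed, and in a fit of all 5 groups. They were also lost without any one of M5 replicates 1 and 2 and M1 replicates 1, 2 and 3. Over all genes tested, calls went from 980 to 252, 118 and 1380 in the first 3 settings. Without 1 of those libraries they were 56 to 256. The sign held throughout. Against M3, no member was called (0 of 10 by limma, 2 at an unadjusted p under 0.05, where 0.0138% of all genes passed, and 2077 did so before adjustment), and the count was also 0 without M3 replicate 3.

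Within a library, the ratio of Catsper3 to Catsper1 was also taken. It was 0.76, 0.723 and 0.709 in M5 and 0.507 to 0.626 in all libraries of Con, MNC and M1. In M3 it was 0.58, 0.539 and 0.731, so that replicate 3 lay with the M5 libraries. The log2 ratio was higher by 0.46 in M5 than in M1 and by 0.38 than in MNC, each with exact permutation p = 0.1, the smallest possible with 3 against 3 (adjusted p = 0.133), and by 0.26 than in M3, exact permutation p = 0.3. The ratio was chosen after the levels were seen. Of 5 red blood cell genes tested, 3 were called higher in M5 than in MNC, and the 6 genes of the list summed to 148 to 491 FPKM in M5 and 21.8 to 35.4 FPKM in MNC, and spermatocyte markers to 583 to 653 against 523 to 533 FPKM, with 2 of 9 called higher. Round spermatid markers summed to 1171 to 1229 FPKM in M5 and 1302 to 1364 FPKM in MNC. Limma called 0 of these 8, with 3 at an unadjusted p under 0.05 (median -0.16), as were 3620 of all 14514 genes. The part of these genes in the ratio, and in the differences of Cacna1h and Abhd2 given further on, was not tested.

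**Figure D4:**
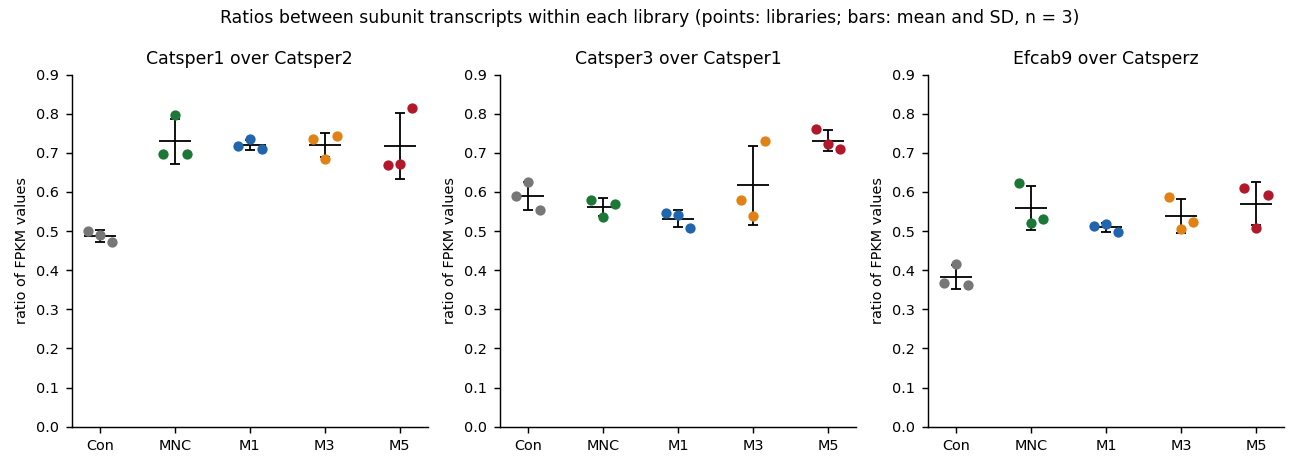
Ratio of FPKM values within each library (y axis, from 0) by group (x axis), for Catsper1 over Catsper2, Catsper3 over Catsper1 and Efcab9 over Catsperz, with points for libraries and bars for mean and SD (n = 3). Con is lowest for the first and last ratio, and M5, with M3 replicate 3, is highest for Catsper3 over Catsper1.

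Across the 15 libraries some members followed each other, described without a test since libraries share group and composition. On log2(FPKM + 1), Efcab9 followed Kcnu1 (Pearson r = 0.91) and Catsper3 (r = 0.9), and Catsper3 followed Kcnu1 (r = 0.86). Catsperb followed Slc9c1 (r = 0.81) and Catsper2 followed Catsperd (r = 0.76). Catsper3 and Catsperd ran opposite to each other (r = -0.85), as did Catsper1 and Catsperb (r = -0.72). With group means subtracted, these r values were 0.61, 0.6, 0.61, 0.64, 0.51, -0.63 and -0.38. For Catsper1 and Slc9c1 r went from -0.71 to -0.25, and for Catsper2 and Catsper3 from -0.66 to -0.22. Some other opposite pairs did not stay opposite within groups. The r of Catsper3 and Slc9c1 went from -0.41 to 0.56, that of Efcab9 and Slc9c1 from -0.53 to 0.41, that of Catsperb and Efcab9 from -0.5 to 0.41 and that of Catsperb and Kcnu1 from -0.52 to 0.27. The genes whose levels were most like the members' mean over the 15 libraries were Gykl1 (r = 0.9), Lgals8 (r = 0.88), Zfp330 (r = 0.82), Ddx20 (r = 0.81) and Lypd4 (r = 0.81). Some members ran opposite to each other, and this mean of centred values spanned only -0.099 to 0.133 on the log2 scale. A gene that follows it need not resemble any single member.

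The other CatSper subunits and partners were also called in both directions between Con and MNC. Of 9 genes tested, 2 were higher in MNC and 2 lower (20.4% of all genes were called), and the median difference was -0.03 against -0.095 over all genes. Tmem262, whose product is the small transmembrane subunit CATSPERη, was at 25.73, 24.19 and 27.68 FPKM in Con and at 38.99, 37.8 and 33.55 FPKM in MNC (log2 difference 0.49, adjusted p = 0.0198). Tmem249, the CATSPERθ subunit needed to assemble the channel, was 1.25-fold Con (log2 difference 0.31, adjusted p = 0.0333). Slco6c1, an organic anion transporter found in the complex, was at 73.63 to 77.49 FPKM in Con and 64.28 to 65.54 FPKM in MNC (-0.22, adjusted p = 0.0251). Catspere2 was also lower (-0.4, adjusted p = 0.0401), but it and Catspere1 are near-identical copies, as are Catsperg1 and Catsperg2, and their values are uncertain for that reason. C2cd6, which targets the channel to the flagellum, was at 166.24 to 175.25 FPKM in Con and 167.33 to 173.7 FPKM in MNC. Against MNC, limma called 0 of the 9 in M5, M1 and M3, with 5, 2 and 3 at an unadjusted p under 0.05. Over all 14514 genes tested, 3620, 862 and 1369 were at that level.

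Of 22 other sperm channel and transporter genes tested, 4 were called higher and 1 lower in MNC than in Con, a share near the 20.4% called over all genes, with a median of 0.02 against -0.095 over all genes. Lrrc52, the accessory subunit of KSper, was at 13.66, 16.12 and 15.48 FPKM in Con and at 20.74, 26.32 and 20.8 FPKM in MNC (log2 difference 0.55, adjusted p = 0.0275), so both subunits of that channel were higher. Adcy10, the soluble adenylyl cyclase that works with sNHE, was higher (0.31, adjusted p = 0.0194) while Slc9c1 was lower. Atp1b3, a sodium pump subunit (0.49, adjusted p = 0.0288), and P2rx2, an ATP-gated channel (0.34, adjusted p = 0.0376), were higher, and Atp2b4, a plasma membrane calcium pump, was lower (-0.23, adjusted p = 0.0346).

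Against Con, which these comparisons share, the 9 CatSper genes gave 2 calls higher and 3 lower in M1 (34.2% of all genes called), 2 and 3 in M3 (22.1%), and 1 and 4 in M5 (21.7%). Tmem262 was higher in all 3 groups (log2 differences 0.54, 0.62 and 0.38) and Tmem249 in M1 and M3 (0.29 and 0.28). Catspere1, Catspere2 and Catsperg2 were called lower in all 3, and Catsperg1 in M5, with the same doubt about near-identical copies. The 22 channel and transporter genes gave 5 calls higher and 3 lower in M1, 3 and 2 in M3, and 3 and 5 in M5. Lrrc52, Atp1b3 and Adcy10 were called higher and Atp2b4 lower in all 3. In M1, Atp1a4, the sodium pump isoform of sperm (0.44), and Cnga3, a cyclic nucleotide-gated channel (0.5), were also called higher. Slc4a8, a bicarbonate transporter, was called lower in M1 (-0.2) and M5 (-0.39), and Cacna1h in M1 (-0.17) and M5 (-0.63). Hvcn1, a proton channel, was called lower in M3 (-0.36), and Slc9a8, a sodium-proton exchanger (-0.42), and Slc26a8, an anion transporter (-0.24), in M5.

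In M5 against MNC, 2 of these 22 genes were called lower and none called higher (5.65% of all genes were called), with a median of -0.15 against 0.025 over all genes. Cacna1h, a T-type voltage-gated calcium channel, had 25.32, 24.31 and 23.06 FPKM in the M5 libraries against 36.69, 33.85 and 36.88 FPKM in the MNC libraries. All M5 libraries were lower, 0.677-fold MNC (log2 difference -0.54 ± 0.067, adjusted p = 0.0165). Abhd2, which encodes a lipase, had 43.62, 43.05 and 44.12 FPKM in the M5 libraries against 51.89, 58.53 and 57.67 FPKM in those of MNC (-0.35 ± 0.0639, adjusted p = 0.0352). In M1 Cacna1h was at 32.98 to 34.5 FPKM and Abhd2 at 54.46 to 56.25 FPKM, and M5 was below M1 for Cacna1h (-0.46, adjusted p = 0.0121) and Abhd2 (-0.34, adjusted p = 0.0139). In M3 Cacna1h was at 33.85, 32.83 and 27.43 FPKM and Abhd2 at 56.01, 54.8 and 45.97 FPKM. All M5 libraries were lower than these, but limma called neither gene in M5 against M3 (-0.35 and -0.25, adjusted p = 0.338 for each). Of the 22 genes, limma called 0 in M1 and M3 against MNC. At an unadjusted p under 0.05 there were 6 in M5, 0 in M1 and 2 in M3. Over all 14514 genes tested, 3620, 862 and 1369 were at that level.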

How the data were processed

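Per the labels, RNA of 15 mouse testes libraries was sequenced, although the extraction text names sperm. The study enriched poly(A) RNA and aligned reads with SOAPaligner to a reference given in the submitters' processing notes as mm10. The deposited values are FPKM per gene ID for each library, and the authors' counts are not used here, so depth is unknown and no interval from counting is given. FPKM summed to 470243 to 513817 per library. Of the 23510 IDs, 89.9% matched a RefSeq symbol.

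Values were analysed as log2(FPKM + 1) for 14514 genes with a mean of at least 1 FPKM. Fold changes on this scale understate changes of low genes. Groups were compared pairwise with limma 3.58.1 in R 4.3.3 (linear model, moderated variance with a mean trend, two-sided, Benjamini-Hochberg adjustment over all genes tested, called at an adjusted p under 0.05). The fitting script was tested on simulated data. Ratios and receptor genes were compared by exact permutation tests. The study's own test, DEGseq, needs read counts and was not run. Libraries were grouped by title, since the description of M5-2 names the column of M5-1.

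All 10 members are named, with values in every library for those called in a comparison, and genes of the other 2 pathway lists are named where called. Members and lists were chosen with earlier results of these data known, and the lists give no independent support. Alternatives were another pseudocount, other filters, centring, quantile normalization, removal of a GC trend, one fit of 5 groups, a replicate block, the study's threshold, a switch of the control to Con, and each library left out in turn. Those for M1, M3 and M5 against Con were chosen after seeing the data.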

Additional observations from a re-analysis of the deposited data

Results flagged for a closer look

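The level of 2 of 10 members differed between the M5 and M1 groups by a direct limma test, where 6.75% of all genes tested were called. Neither member was called in M5 or M1 against MNC, their shared control. Catsper1 differed by -0.23 on the log2(FPKM + 1) scale (mean 77.6 FPKM in M5 and 91.1 FPKM in M1, lower in 3 of 3 M5 libraries, adjusted p = 0.0371). Catsper3 differed by 0.22 (mean 56.7 FPKM in M5 and 48.4 FPKM in M1, higher in 3 of 3 M5 libraries, adjusted p = 0.0421). Over 14 alternatives each, the adjusted p ranged from 0.0212 to 0.15 for Catsper1 and from 0.0312 to 0.302 for Catsper3. Each call held in 1 of 6 settings without 1 library and in 4 of the 8 other alternatives.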

How the results depend on the processing

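The 7 members called in MNC against Con became 4 both with centring and after removing the GC trend, 0 at the study's threshold and 0 with the replicate block, and 0 to 4 without 1 library. The 2 called in M5 against M1 became 0 with centring, after removing the GC trend, in a fit of all 5 groups, at the study's threshold and with the replicate block, and 0 to 2 without 1 library. At the study's threshold, calls over all genes went from 2967 to 2 in MNC against Con and from 980 to 8 in M5 against M1. With the replicate block they went to 10 and 39. With Con in place of MNC, the 0 members called in M5, M1 and M3 became 6, 8 and 4. There Catsper1 (0.21) and Kcnu1 (0.28) changed sign in M5, and Catsper2 (-0.12), Catsper3 (0.28), Catsperb (-0.26), Efcab9 (0.37), Kcnu1 (0.23) and Slc9c1 (-0.2) in M1. In alternatives added after seeing the data, the 8 called in M1 against Con became 4 with centring, and 5 both after removing the GC trend and with the replicate block (2 to 5 without 1 library). The 4 in M3 against Con became 0 with the replicate block (0 to 5 without 1 library), and the 6 in M5 against Con became 2 with centring and 1 with the replicate block (1 to 6 without 1 library). With the block, calls over all genes against Con went from 4969 to 4132 in M1, from 3210 to 0 in M3 and from 3143 to 573 in M5. Chrm5 in M5 against MNC was -0.045, but 0.131 against Con and 0.011 without M5 replicate 2 (leaving out 1 library gave -0.118 to 0.011). Chrm1 in M1 was 0.008, but -0.021 against Con and -0.009 without M1 replicate 1 (-0.009 to 0.024). The cause of these changes was not tested.

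Of 18 correlations between same-numbered libraries, from -0.4 to 0.18, only 2 were over 0.1. The labels give a number and no pairing, and these correlations cannot decide whether same-numbered libraries share a batch. The replicate block changed no other count of members, which stayed at 0 in M5, M1 and M3 against MNC and in M5 against M3. Over all genes, calls ranged from 2 to 3125 in MNC against Con, from 6 to 2424 in M5 against MNC (3143 with Con as the control) and from 8 to 1380 in M5 against M1 over the alternatives other than leaving out a library. Leaving out 1 library gave 8 to 2497, 35 to 946 and 56 to 1690 calls over all genes in these comparisons. For single members, 437 of 510 values under those alternatives kept their side of the threshold and direction. Depth is unknown and 3 libraries a group limit the precision. The alternatives were not run for the other gene lists.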

Other observations

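Slc26a8, a sperm anion transporter, was at 13.24 FPKM in M1 replicate 3 and 11.59 FPKM in M3 replicate 3, and between 40.21 and 67.46 FPKM in the other 13 libraries. Catspere1 was at 46.56 and 37.33 FPKM in MNC replicates 1 and 3, at 21.13 FPKM in MNC replicate 2, and between 14.73 and 28.81 FPKM elsewhere. Both genes were chosen after their values were seen, and a near-identical copy makes Catspere1 uncertain. The calcium channel gene Cacna1g, under the filter on low values, was at 1.0 to 1.32 FPKM in Con and 0.49 to 0.65 FPKM in MNC, and was not tested.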
